A study of Mus musculus with 8 samples.

Results

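Nt5e encodes CD73, the enzyme of the cell surface that makes adenosine from AMP, and it is described here with 9 other genes that make, sense, take up or break down adenosine and its nucleotide precursors. The 10 genes (Nt5e, Entpd1, Entpd2, Entpd5, Enpp1, Adora1, Adora2b, Ada, Adk and Slc29a1) were chosen by name, with earlier results of these data known, and all 10 were found among the 23284 gene symbols of the count files. The samples were cultured mouse preSCs, neuroendocrine cells taken as a precursor stage of small cell lung cancer, with 129/SvJ and C57BL/6 given as the strain. They were derived from mice with lox alleles of the Rb, p53 and p130 genes together with Chga-GFP, a background that all 8 libraries shared. A guide RNA against Max was given to the cells of 4 libraries (MaxKO 1 to 4) and a control guide to those of the other 4 (Ctrl 1 to 4), and the cells were selected with puromycin. The populations were polyclonal, so cells with an intact Max gene could remain in them, and how many alleles were edited is not known from these data. MAX is the shared partner through which MYC, MNT and MXD proteins bind DNA.

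Cells release ATP, and enzymes on their surface degrade it. CD39 (Entpd1) and its relatives remove phosphates stepwise to give AMP, ENPP1 cuts ATP to AMP and pyrophosphate, and CD73 turns AMP into adenosine. Adenosine acts on G protein-coupled receptors, of which the one encoded by Adora1 lowers cyclic AMP and the one encoded by Adora2b raises it. Uptake through the equilibrative transporter ENT1 (Slc29a1) ends the signal, after which adenosine kinase (Adk) makes AMP again or adenosine deaminase (Ada) makes inosine. In the lung and in tumours the pathway is known for damping immune responses and for its link to low oxygen.

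The upstream sequences of Nt5e, Ada and Enpp1, the genes with the largest differences among those with enough reads, are shown because MAX pairs bind the E-box CACGTG. A window of Slc29a1 is added because it holds this E-box. RefSeq promoter windows (build GRCm38.p6, another build than the mm9 used for the counts) were matched by symbol for all 10 genes and gave 20 windows, since some genes have several starts. Only the 250 bases before each start were used. Capitals mark CACGTG, the core ACGTG that HIF proteins recognise (either strand; each CACGTG contains it), and the GC box GGGCGG (either strand, neighbouring matches may overlap). Each sequence reads 5′ to 3′ on the strand of its gene. The windows are chr9:88327359-88327608, plus strand (Nt5e), chr2:163750240-163750489, minus strand (Ada), chr10:24712160-24712409, minus strand (Enpp1), and chr17:45595247-45595496, minus strand (Slc29a1, the only window of these genes with this E-box, at a RefSeq start that matched no GENCODE transcript).
Nt5e: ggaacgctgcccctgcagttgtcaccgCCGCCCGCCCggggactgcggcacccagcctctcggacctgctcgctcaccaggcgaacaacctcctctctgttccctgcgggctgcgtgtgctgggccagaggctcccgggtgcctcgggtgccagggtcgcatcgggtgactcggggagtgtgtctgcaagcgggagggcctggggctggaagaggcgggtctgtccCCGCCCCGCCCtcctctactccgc
Ada: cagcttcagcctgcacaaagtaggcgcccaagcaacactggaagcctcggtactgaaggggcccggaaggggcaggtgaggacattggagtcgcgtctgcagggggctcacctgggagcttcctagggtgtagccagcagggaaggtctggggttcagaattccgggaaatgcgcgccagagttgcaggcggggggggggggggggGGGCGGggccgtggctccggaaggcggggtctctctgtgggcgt
Enpp1: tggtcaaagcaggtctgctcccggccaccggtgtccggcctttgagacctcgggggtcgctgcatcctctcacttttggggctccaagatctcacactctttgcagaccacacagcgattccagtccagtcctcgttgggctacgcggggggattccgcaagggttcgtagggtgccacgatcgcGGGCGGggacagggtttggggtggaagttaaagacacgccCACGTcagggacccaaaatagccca
Slc29a1: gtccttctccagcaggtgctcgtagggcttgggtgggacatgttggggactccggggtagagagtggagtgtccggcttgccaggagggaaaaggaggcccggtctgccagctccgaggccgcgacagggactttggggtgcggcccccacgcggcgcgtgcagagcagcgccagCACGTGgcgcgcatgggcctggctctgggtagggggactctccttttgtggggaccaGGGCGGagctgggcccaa

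The MAX E-box was present in 1 of the 20 windows, against 6.02% of 32817 windows of all genes. The windows of Nt5e and Ada held neither this E-box nor ACGTG, and that of Enpp1 held ACGTG once, 25 bases before the start. ACGTG was found in 7 of the 20 windows, beside 16.6% of all windows. These values leave out the HIF core form GCGTG, so they do not count all HIF cores. The E-box variant CACGCG, searched on both strands, was found in 6 (7.61% of all windows) and the GC box in 12 (32.7% of all windows). The cyclic AMP response element TGACGTCA was found in 0 (1.55% of all windows). Slc29a1 alone gave 8 of the 20 windows, so these counts are not of separate genes. By gene, ACGTG was found in 5 of the 10, the variant in 5 and the GC box in 8. No share by gene was computed over all genes. The Nt5e window held the GC box at 4 positions and that of Adora2b at 6. These letter matches describe short windows and say nothing of whether a factor binds.

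Between 14952291 and 19480947 reads per MaxKO library and between 13711278 and 19804949 per Ctrl library fell in genes. Levels are given in CPM, counts relative to the library's depth, corrected with TMM factors, and a gene with no read could have had up to 0.151 to 0.219 CPM (3 counts), a limit that covers counting error only. Max itself was at 42.3, 42.3, 59.1 and 68.0 CPM in MaxKO 1 to 4 and at 65.5, 70.2, 75.2 and 61.9 CPM in Ctrl 1 to 4, which overlap (log2 difference -0.37, SE 0.15, adjusted p = 0.0955, edgeR's quasi-likelihood test). It passed the threshold without MaxKO 4 (-0.52). A guide can disrupt a protein without lowering its mRNA, so the Max level is a weak check of the labels. Among the genes of the genotype, Rb1 (0.23) and Trp53 (0.05) did not pass, although Rb1 did without Ctrl 4 (0.35) or with Ctrl 1 and 2 alone (0.29). Rbl2, which encodes p130, passed (-0.38, adjusted p = 0.0323, edgeR), except without Ctrl 1, 2 or 4, without MaxKO 1, 3 or 4, and with Ctrl 3 and 4 alone (adjusted p up to 0.114). The neuroendocrine markers were high, with 10 of 10 detected and a summed level, scaled by plain library totals as for all marker lists, of 6612 to 7361 CPM in MaxKO and 5972 to 8127 CPM in Ctrl. The controls were not alike: the share of reads outside annotated exons was 18.5% and 18.6% in Ctrl 1 and 2, 23.3% and 23.4% in Ctrl 3 and 4, and 20.5% to 21.5% in MaxKO. Over gene counts, pairs of MaxKO libraries differed by a chi-square per degree of freedom of 3.86 to 9.82. Among the controls, Ctrl 1 and 2 differed least (4.75), and the other pairs gave 24.8 to 37.7. Ctrl 3 and 4 differed from each other (25.8) as much as from Ctrl 2 (25.4 and 24.8). Values with Ctrl 1 and 2 or with Ctrl 3 and 4 as the only controls therefore compare these libraries and not 2 uniform kinds of control. Nothing in the labels tells whether equal-group libraries are separate cultures, and p-values therefore cover only library-to-library spread, possibly technical.

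Nt5e showed the largest difference of the 6 genes with enough reads to be fitted. It was at 7.41, 9.69, 7.59 and 6.89 CPM in MaxKO 1 to 4 and at 34.2, 29.3, 34.2 and 41.9 CPM in Ctrl 1 to 4. All 4 MaxKO libraries lay far below all 4 controls, from 108 to 146 reads against 467 to 747. The means were 7.89 ± 1.23 and 34.9 ± 5.19 CPM (SD, n = 4 each), a 4.43-fold lower level in MaxKO (log2 difference -2.15, SE 0.14). Against Ctrl 1 and 2 alone the log2 difference was -2.02, and against Ctrl 3 and 4 alone it was -2.28, so the difference was of similar size with either choice. Because the genes were chosen with this contrast in view, their differences are given as a description and carry no test of their own.

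**Figure D1:**
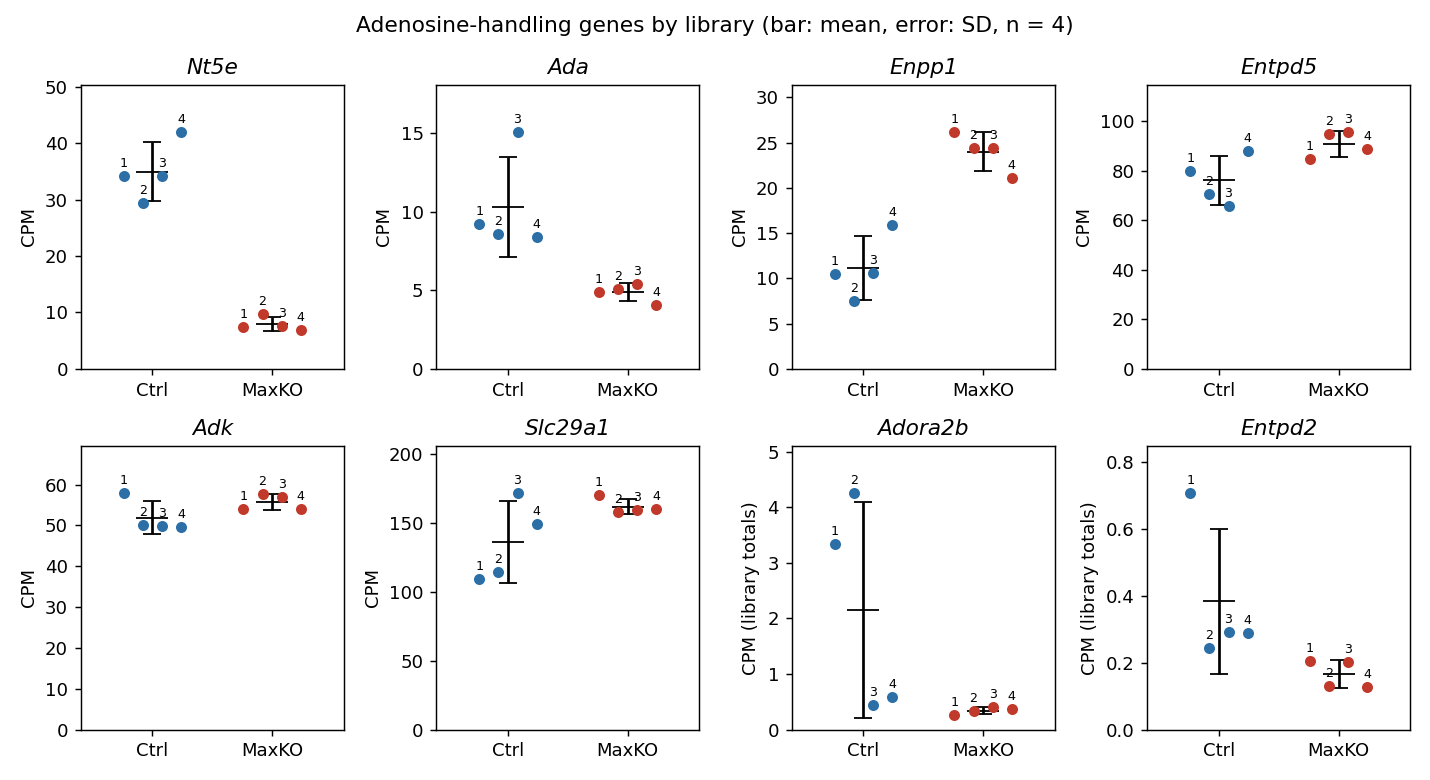
Level in CPM of 8 of the 10 genes in each library, with Ctrl in blue and MaxKO in red, the replicate number at each point, the mean as a bar and the SD as error (n = 4). Nt5e and Ada are lower and Enpp1 is higher in all 4 MaxKO libraries, while Adora2b is high only in Ctrl 1 and 2; Adora2b and Entpd2 are scaled by plain library totals.

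CD73 is also a surface marker of mesenchymal cells, so the markers of fibroblasts are given beside it. Of 8 such markers, Lum had no read in any library, and the summed level was 48.5 to 64.9 CPM in MaxKO and 25.2 to 45.2 CPM in Ctrl, nearly all of it from Dcn, a secreted proteoglycan gene. Dcn was higher in MaxKO, at 48.3 to 64.2 CPM against 21.3 to 42.9 CPM in Ctrl, opposite to Nt5e. The other 7 were also summed without Dcn, a choice made after the values were seen. They gave 0.205 to 0.736 CPM in MaxKO and 1.97 to 3.87 CPM in Ctrl. The markers thus went in both directions: Dcn was higher in MaxKO, and Pdgfra, Col1a1 and Thy1 were lower, as was Nt5e. Col1a2, Col3a1 and Pdgfrb overlapped between the groups. Pdgfra lay between 0.0513 and 0.334 CPM in MaxKO and between 0.811 and 2.26 CPM in Ctrl. Col1a1 was at 0.0513 to 0.190 CPM in MaxKO and 0.219 to 0.404 CPM in Ctrl. Thy1 was at 0 to 0.0669 CPM in MaxKO and 0.406 to 0.802 CPM in Ctrl. Both stayed under 1 CPM in all 8 libraries. The part of such cells in the Nt5e difference was not tested. In bulk RNA, fewer cells that express a gene and less RNA per cell cannot be told apart.

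Among the other nucleotide-degrading enzymes, Enpp1 was higher in MaxKO, unlike Nt5e, and Entpd5 overlapped between the groups. Entpd1 and Entpd2 were scarcely detected, and the few Entpd2 reads were lower in MaxKO, as for Nt5e. Enpp1, whose product supplies AMP directly from ATP, was at 26.1, 24.4, 24.5 and 21.1 CPM in MaxKO 1 to 4 and at 10.5, 7.52, 10.6 and 15.9 CPM in Ctrl 1 to 4. Every MaxKO library was above every control. Its means were 24.02 ± 2.13 and 11.1 ± 3.50 CPM (SD, n = 4 each), 2.15-fold higher in MaxKO (log2 difference 1.11, SE 0.18). The size depended on the controls, with 1.40 against Ctrl 1 and 2 and 0.84 against Ctrl 3 and 4.

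Entpd5, a relative of CD39 that acts mainly on UDP and GDP in the secretory pathway, was at 84.6, 94.9, 95.6 and 88.9 CPM in MaxKO and at 79.8, 70.7, 66.0 and 88.1 CPM in Ctrl. The groups overlapped, since MaxKO 1 lay below Ctrl 4, and the log2 difference was 0.26 (SE 0.09). Entpd1, the CD39 gene itself, had 0 or 1 read in each library, as did Adora1. CD39 is usually found on endothelial and haematopoietic cells, and their markers were low too. The 6 endothelial markers summed to 0.873 to 1.204 CPM in MaxKO and 1.04 to 2.19 CPM in Ctrl, and Emcn had no read. The 6 haematopoietic markers summed to 2.36 to 4.15 CPM in MaxKO and 2.52 to 5.83 CPM in Ctrl, most of it from Cd68.

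Entpd2, which encodes a surface enzyme that prefers ATP, had 4, 2, 3 and 2 reads in MaxKO 1 to 4 and 14, 4, 4 and 5 reads in Ctrl 1 to 4. The summed counts of 11 and 27, scaled by the library totals, gave a 2.39-fold higher level in Ctrl (95% exact interval 1.15 to 5.34, counting error only). Ctrl 1 alone held 14 of the 27 reads, and without it the ratio was 1.63. At such depth the gene can only be called scarcely detected in both groups.

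Adora2b, which encodes a low-affinity adenosine receptor, was high in 2 of the 4 controls only. It had 5, 5, 6 and 6 reads in MaxKO 1 to 4 and 66, 70, 6 and 10 reads in Ctrl 1 to 4. Ctrl 1 and 2 were thus at 3.33 and 4.26 CPM, whereas Ctrl 3 and 4, at 0.438 and 0.579 CPM, were close to the MaxKO libraries at 0.257 to 0.401 CPM. Over all controls the summed counts were 6.73-fold higher in Ctrl (95% exact interval 4.29 to 11.1, counting error only). The ratio was 11.2 with Ctrl 1 and 2 alone and 1.54 with Ctrl 3 and 4 alone. The gene was left out of the fit because fewer than 4 libraries held enough reads. The neuroendocrine peptide gene Calca split the controls the same way, at 1986 and 1802 CPM in Ctrl 1 and 2, 397 and 483 CPM in Ctrl 3 and 4, and 517 to 581 CPM in MaxKO. Whether the Adora2b level is tied to this split was not tested.

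Of the genes that remove adenosine, Ada was lower in MaxKO. It was at 4.91, 5.11, 5.42 and 4.08 CPM in MaxKO 1 to 4 and at 9.26, 8.60, 15.1 and 8.42 CPM in Ctrl 1 to 4. No MaxKO library reached the lowest control, and Ctrl 3 stood well above the other controls. The means were 4.88 ± 0.571 and 10.3 ± 3.18 CPM (SD, n = 4 each), a 2.11-fold lower level (log2 difference -1.08, SE 0.20), and -0.84 without Ctrl 3. The difference was -0.88 with Ctrl 1 and 2 and -1.26 with Ctrl 3 and 4.

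Adk, the other enzyme that consumes adenosine, was at 53.9, 57.7, 57.0 and 54.0 CPM in MaxKO and at 57.9, 50.04, 49.8 and 49.7 CPM in Ctrl. Ctrl 1 lay above all 4 MaxKO libraries and the other 3 controls below them, and the log2 difference was 0.10 (SE 0.08), with 0.04 against Ctrl 1 and 2 and 0.15 against Ctrl 3 and 4. Slc29a1 was at 170.3, 158, 159 and 160.5 CPM in MaxKO and at 109, 114, 172 and 149 CPM in Ctrl. Its 4 MaxKO values were nearly alike (SD 5.59 CPM), and the controls were spread around them (SD 29.7 CPM). The log2 difference of Slc29a1 was 0.25 (SE 0.13) with all controls, 0.53 with Ctrl 1 and 2 and 0.01 with Ctrl 3 and 4, so all 4 MaxKO libraries lay above Ctrl 1 and 2 but not above Ctrl 3.

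Of the 10 genes, 6 had enough reads to be fitted and 4 (Entpd1, Entpd2, Adora1 and Adora2b) did not. Among the 6, Nt5e and Ada passed the threshold as lower and Enpp1 as higher, an adjusted p under 0.05 in edgeR's quasi-likelihood fit over all genes. Of all 13358 genes tested, 12.2% passed as lower and 10.9% as higher. Since the genes were picked with this contrast known, nothing is read from the share. With Ctrl 1 and 2 as the only controls, 6 of the 7 genes tested there passed, in a fit that called 44.6% of all tested genes. Without Ctrl 3 or without Ctrl 4, 4 of 6 passed, beside 27.5% and 27.8% of all tested genes. With no filter on low counts 4 of 10 passed, beside 15.4%. The median log2 difference of the 6 genes fitted with all controls was 0.18, against -0.0036 over all tested genes. These 6 differences were of both signs.

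**Figure D2:**
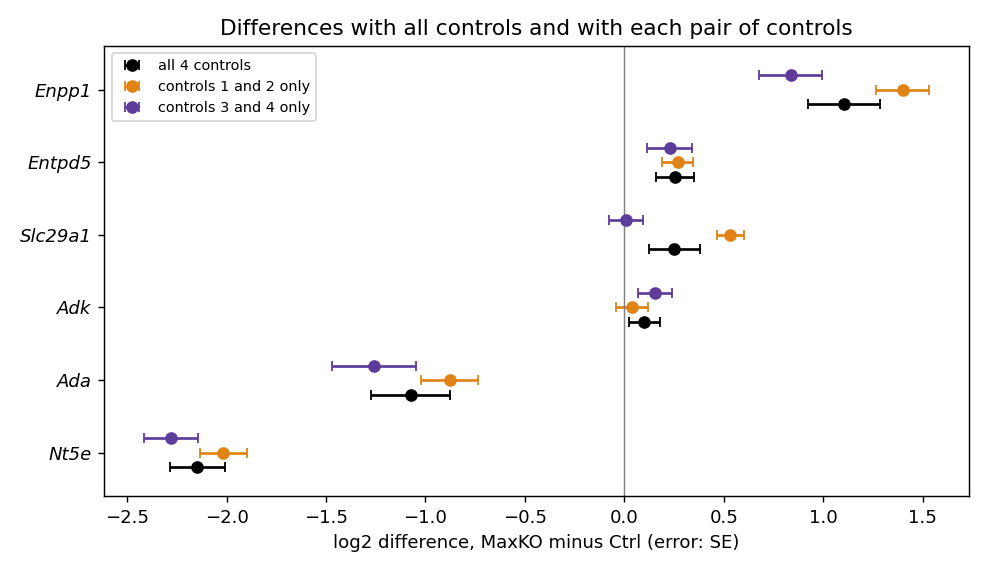
Log2 difference (MaxKO minus Ctrl, error bars SE) of the 6 fitted genes with all 4 controls (black), Ctrl 1 and 2 only (orange) and Ctrl 3 and 4 only (purple). Nt5e stays between -2.28 and -2.02, whereas Slc29a1 goes from 0.53 to 0.01.

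The order of the genes by level per kb of transcript, which allows a comparison between genes, differed between the groups in the places of Nt5e and Enpp1. The longest GENCODE transcript was used as the length, although the annotation behind the counts is not given. In Ctrl, Slc29a1 came first at 62.2 ± 13.5 CPM per kb, followed by Entpd5 (15.5 ± 2.21), Adk (12.4 ± 0.910), Nt5e (8.85 ± 1.43), Ada (6.18 ± 1.82), Enpp1 (1.67 ± 0.548), Adora2b (1.17 ± 1.05) and Entpd2 (0.198 ± 0.112; SD, n = 4 each). The ranges of Entpd5 and Adk overlapped, as did those of Nt5e and Ada and those of Enpp1 and Adora2b. In MaxKO, Slc29a1 (72.3 ± 2.30), Entpd5 (18.1 ± 1.06) and Adk (12.96 ± 0.462) kept the first places, but Enpp1 (3.50 ± 0.300) and Ada (2.86 ± 0.330) came before Nt5e (1.95 ± 0.305; SD, n = 4 each). Enpp1 and Ada overlapped there, and the highest Nt5e value and the lowest Ada value were both 2.40 CPM per kb. Adora2b (0.185 ± 0.0349) and Entpd2 (0.0858 ± 0.0222; SD, n = 4 each) followed in MaxKO, and Entpd1 and Adora1 came last in both groups. With the lengths of all exons merged, Ada took place 4 in both groups, Nt5e was in place 5 in Ctrl, and Enpp1 was in place 7 in Ctrl, after Adora2b (1.10 and 1.17 CPM per kb), and in place 5 in MaxKO.

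The level of Nt5e across libraries was compared with that of 11070 other genes with an average of at least 1 on the log2 CPM scale. Over all 8 libraries, where the difference between the groups sets most of the likeness, the nearest were the cohesin gene Stag1 (Pearson r 0.992), Armc8 (0.990), the ADP-ribosyltransferase gene Parp11 (0.989), the microtubule-binding gene Eml1 (0.987) and the neuronal migration gene Astn1 (0.987). Parp11 was closest in size, at 3.49 ± 0.276 CPM in MaxKO and 11.9 ± 2.33 CPM in Ctrl (SD, n = 4 each), and 466 genes had an r over 0.9. These values describe 8 libraries in 2 groups and carry no test.

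With the group means removed, the nearest genes were the centrosome gene Alms1 (0.985), the histone deubiquitinase gene Mysm1 (0.985), Cer1 (0.982), Qser1 (0.967) and Ccdc138 (0.967). Cer1, which encodes a secreted antagonist of Nodal and BMP signals, was at 29.99 CPM in MaxKO 2 and 29.96 CPM in Ctrl 4, the highest library of each group, as for Nt5e. Its group means were 24.2 ± 4.26 and 23.1 ± 5.05 CPM (SD, n = 4 each). By this measure 69 genes had an r over 0.9, and the differences between the groups are described only for the 5 nearest, of which none passed the threshold in edgeR's fit. Among the other fitted adenosine genes, the correlation with Nt5e after the group means were removed was 0.75 for Enpp1, 0.64 for Entpd5, 0.29 for Slc29a1, 0.18 for Adk and 0.08 for Ada. The value for Enpp1 came mainly from the controls, where both genes were lowest in Ctrl 2 and highest in Ctrl 4. In MaxKO, Nt5e was highest in library 2 and Enpp1 in library 1, and both were lowest in MaxKO 4. Over all 8 libraries, with the group difference included, r was -0.83 for Enpp1.

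**Figure D3:**
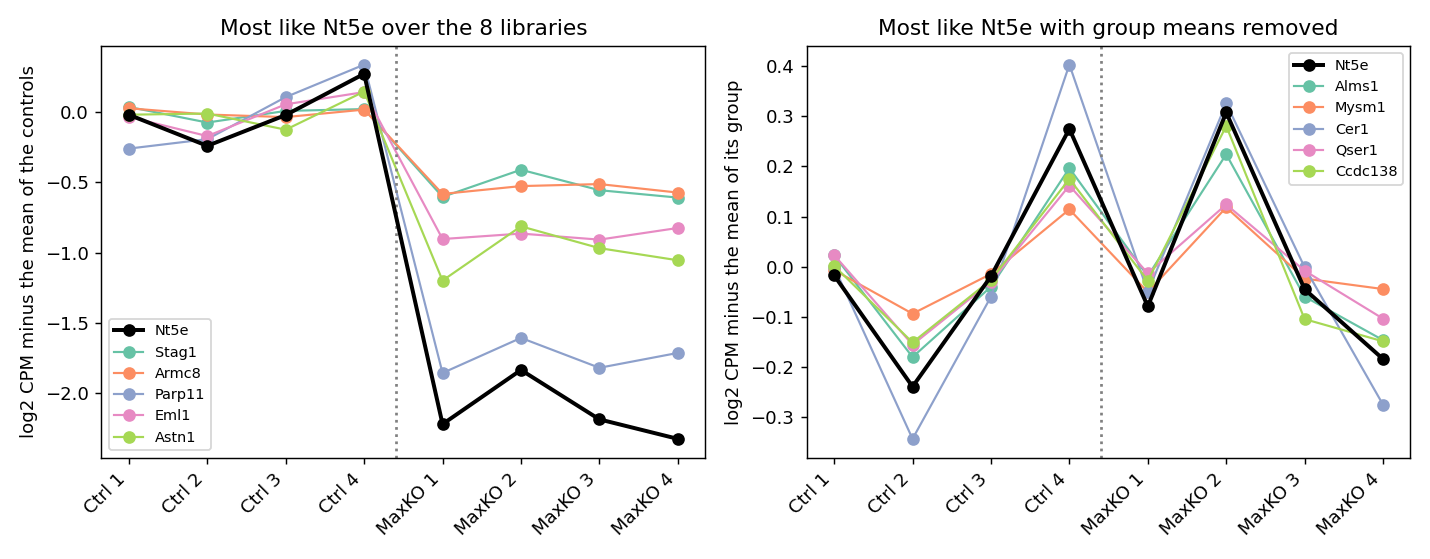
Log2 CPM by library of Nt5e (black) and of the 5 genes most like it, relative to the mean of the controls (left, likeness over the 8 libraries) or to the mean of the own group (right, group means removed). On the left all genes drop in the 4 MaxKO libraries, by less than Nt5e, and on the right MaxKO 2 and Ctrl 4 are the high libraries of their groups.

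The wider pathway was read from 7 lists with 101 further genes, of which 69 could be tested. Of these, 7 rose and 12 fell in MaxKO, that is 27.5%, beside 23.1% of all tested genes, with a median log2 difference of -0.08. By edgeR's test 13 to 25 of them passed when 1 library was left out, where 15.5% to 27.8% of all tested genes did. With Ctrl 1 and 2 as the only controls 32 of 71 passed, in a fit that called 44.6% of all tested genes. In the text below, p-values are Benjamini-Hochberg adjusted over all genes (edgeR), and each list is described by its counts only. Beside each count stand the shares of all tested genes, 10.9% higher and 12.2% lower.

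Among the other surface enzymes, 1 of 8 tested genes rose and 1 fell. Entpd3, another ATP-degrading relative of CD39, was at 22.1, 23.1, 20.6 and 23.7 CPM in MaxKO and at 13.4, 10.7, 15.4 and 16.9 CPM in Ctrl, with no overlap (0.66, SE 0.13, adjusted p = 0.00364). The rise of Entpd3 was 0.88 with Ctrl 1 and 2 and 0.46 with Ctrl 3 and 4. Enpp2 encodes autotaxin, which makes lysophosphatidic acid and is not chiefly a nucleotide enzyme. It fell from 56.3, 45.1, 26.1 and 24.01 CPM in Ctrl 1 to 4 to 11.6, 12.5, 17.8 and 15.8 CPM in MaxKO (-1.40, SE 0.27, adjusted p = 0.00371). Here too Ctrl 1 and 2 were the higher pair, and the log2 difference of Enpp2 was -1.83 against them and -0.81 against Ctrl 3 and 4. Without Ctrl 3, 2 of these enzyme genes rose, and 3 did with Ctrl 1 and 2 alone.

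The channels that release ATP were represented by 4 tested genes, of which 2 rose and 0 fell (0 at an unadjusted p under 0.05, and 0 by DESeq2 or limma-voom). The pannexin gene Panx1 was at 42.7 to 51.9 CPM in MaxKO and 34.9 to 40.8 CPM in Ctrl (0.39, SE 0.09, adjusted p = 0.00740). Panx2 was at 18.996, 17.4, 16.1 and 16.8 CPM in MaxKO and at 5.23, 5.71, 9.74 and 13.97 CPM in Ctrl (1.01, SE 0.26, adjusted p = 0.0179). The rise of Panx2 was 1.67 against Ctrl 1 and 2 and 0.53 against Ctrl 3 and 4, and it did not pass without MaxKO 1 (adjusted p = 0.0564). Without Ctrl 3, or with Ctrl 1 and 2 alone, 1 gene of this list fell.

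Of the other adenosine and nucleotide receptors, 5 of 16 could be tested, and 2 rose and 0 fell (0 at an unadjusted p under 0.05, and 0 by DESeq2 or limma-voom). P2ry6, which encodes a receptor for UDP, was at 7.98, 6.57, 7.18 and 7.40 CPM in MaxKO and at 1.81, 2.17, 3.29 and 4.15 CPM in Ctrl, without overlap (1.36, SE 0.23, adjusted p = 0.00155). P2rx4, an ATP-gated cation channel gene, rose by 0.43 (SE 0.10, adjusted p = 0.00844), from 16.2 to 21.4 CPM in Ctrl to 23.3 to 26.4 CPM in MaxKO. The rise of P2ry6 was 1.88 with Ctrl 1 and 2 and 0.95 with Ctrl 3 and 4, and that of P2rx4 was 0.31 and 0.55. Without Ctrl 3, 3 receptor genes rose and 1 fell, and with Ctrl 1 and 2 alone 3 rose and 2 fell, and 1 fell with no filter on low counts. P2rx7, named after its values were seen, had too few reads to be tested. By plain library totals it was at 0 to 0.0633 CPM in MaxKO and at 2.12, 1.95, 0.219 and 0.174 CPM in Ctrl 1 to 4.

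The remaining adenosine receptors add little. Adora2a, named here after its values were seen, was at 2.06 to 2.93 CPM in MaxKO and 2.12 to 4.93 CPM in Ctrl and did not pass (-0.49, SE 0.25, adjusted p = 0.189), and Adora3 had at most 1 read in a library. P2rx3, also singled out after its values were seen, was at 103 CPM in Ctrl 3 and at 5.03 to 11.97 CPM in the other controls, with 13.5 to 23.7 CPM in MaxKO (adjusted p = 0.691).

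In the list of other nucleoside transporters, 1 of 4 tested genes rose and 1 fell. Slc29a3, which encodes a lysosomal nucleoside transporter, was at 15.2, 16.7, 14.8 and 14.2 CPM in MaxKO and at 7.40, 7.64, 10.7 and 12.2 CPM in Ctrl (0.69, SE 0.16, adjusted p = 0.00834). Its rise was 1.02 with Ctrl 1 and 2 and 0.40 with Ctrl 3 and 4. Slc29a4 encodes a transporter of the plasma membrane that carries monoamines as well as adenosine. It was at 9.92, 7.498, 10.9 and 9.83 CPM in MaxKO and at 11.9, 13.95, 27.3 and 17.4 CPM in Ctrl (-0.88, SE 0.23, adjusted p = 0.0195). Without Ctrl 3 this difference was -0.60, with Ctrl 1 and 2 alone -0.44, and it did not pass without MaxKO 2 (adjusted p = 0.0664), so that no gene of the list then fell. With Ctrl 1 and 2 alone, 2 genes of the list fell.

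None of the genes of adenosine and AMP turnover passed. Of 16 tested genes, 0 passed the threshold in edgeR's test, 1 had an unadjusted p under 0.05 (Nt5m, a mitochondrial nucleotidase gene, lower), and 0 passed by DESeq2 or limma-voom. Log2 differences in this list ran from -0.20 to 0.26 with a median of -0.06. The list includes the intracellular nucleotidases, AMP deaminases, Ahcy, Aprt, Hprt and the purine phosphorylase genes, although Pnp and Pnp2 are close copies and their counts are less certain. Without Ctrl 4, 1 gene of this list rose, and with Ctrl 1 and 2 alone 1 rose and 1 fell. Of the 101 genes, 32 had too few reads to be tested, and 3 of these, Bst1, Slc28a1 and Nt5c1a, had none.

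**Figure D4:**
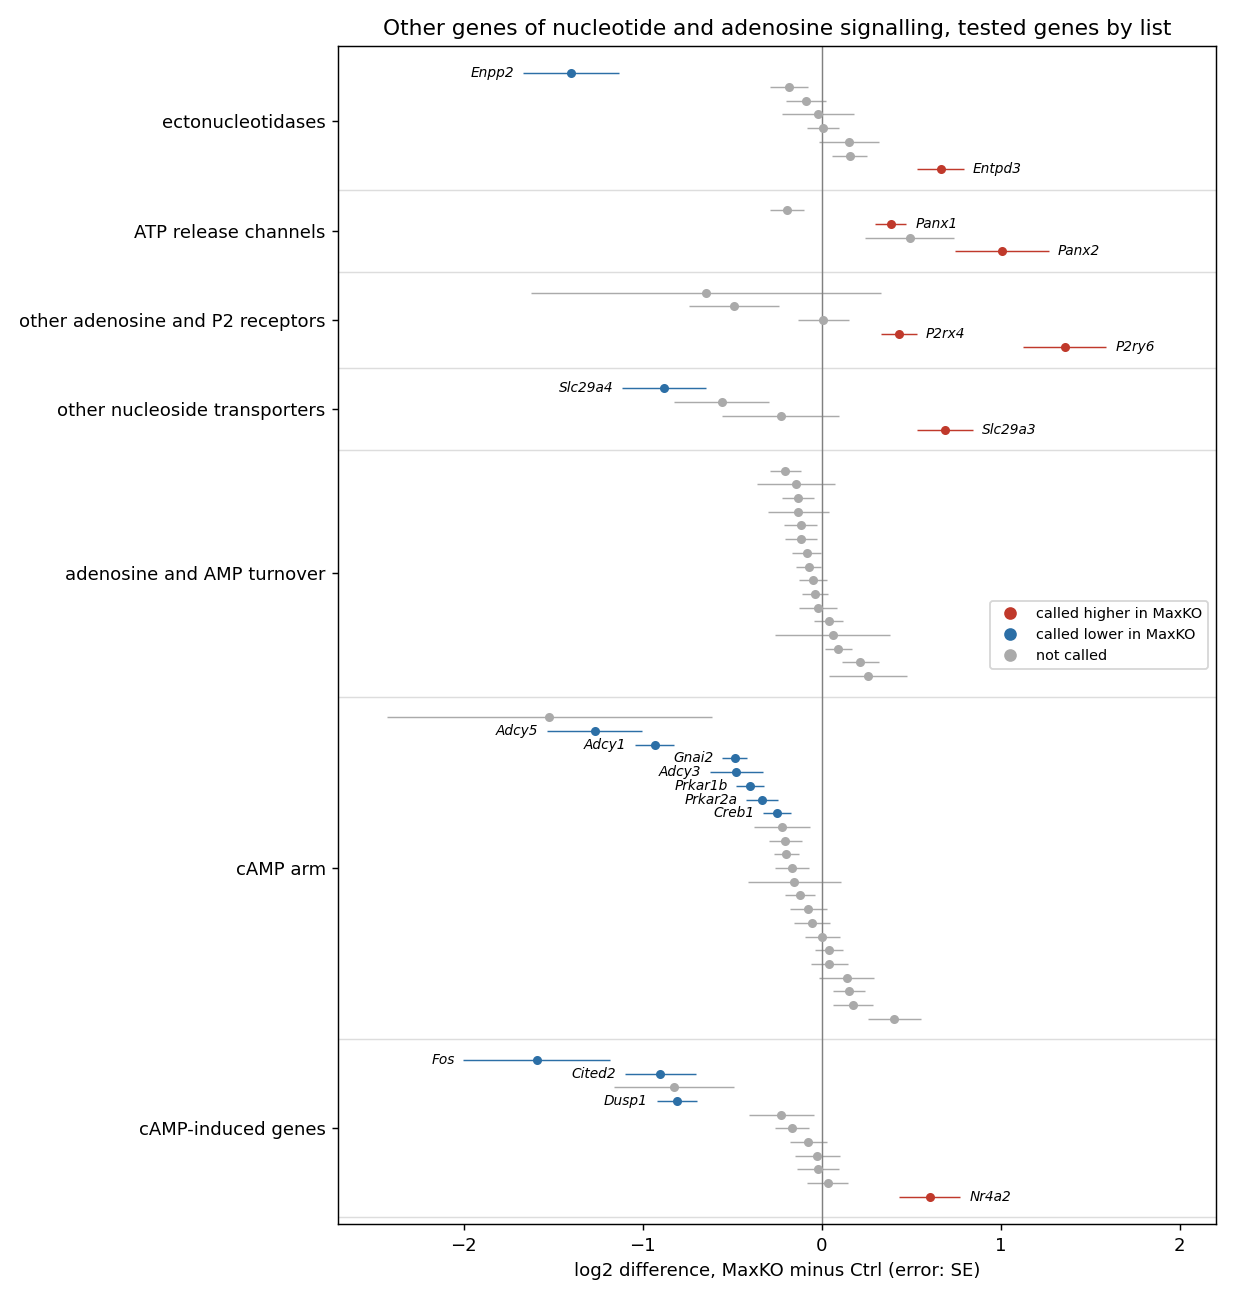
Log2 difference (MaxKO minus Ctrl, error bars SE) of each tested gene of the 7 lists, with genes that passed the threshold in red (higher) or blue (lower) and named. The 16 genes of adenosine and AMP turnover lie between -0.20 and 0.26, and 7 genes of the cyclic AMP arm lie below 0 in blue.

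Adenosine receptors act through G proteins and adenylyl cyclases. In this cyclic AMP arm, 7 of 23 tested genes fell and 0 rose (1 at an unadjusted p under 0.05, and 0 by DESeq2 or limma-voom), with a median of -0.17. These calls were 30.4% of the tested genes of the list, beside 23.1% of all tested genes. The adenylyl cyclase gene Adcy1 was at 10.1, 10.2, 10.8 and 11.04 CPM in MaxKO and at 23.4, 20.4, 17.1 and 19.4 CPM in Ctrl, without overlap (-0.93, SE 0.11, adjusted p = 0.000163). Adcy5, another cyclase gene, fell by 1.27 on the log2 scale (SE 0.26, adjusted p = 0.00487), from 4.54 to 7.46 CPM to 1.25 to 2.99 CPM. Its log2 difference was -1.52 with Ctrl 1 and 2 and -0.98 with Ctrl 3 and 4. Gnai2, which encodes an inhibitory G protein subunit, was at 126, 127, 133 and 145 CPM in MaxKO and at 191, 186, 189 and 178 CPM in Ctrl (-0.49, SE 0.07, adjusted p = 0.000520). Prkar1b, a regulatory subunit of protein kinase A, was lower as well (-0.40, SE 0.08, adjusted p = 0.00350). The falls thus included genes of cyclases, which make cyclic AMP, and Gnai2, the gene of the inhibitory subunit. Without MaxKO 1, 4 of the 7 falls were counted, and 1 gene rose without Ctrl 3, without Ctrl 4 or with Ctrl 3 and 4 alone, and 2 rose with Ctrl 1 and 2 alone.

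Genes that cyclic AMP is known to induce went in both directions, with 3 of 11 tested genes lower and 1 higher. Dusp1, a phosphatase gene that many signals induce, was at 31.3, 37.1, 33.3 and 27.6 CPM in MaxKO and at 63.1, 62.5, 50.7 and 49.8 CPM in Ctrl (-0.81, SE 0.11, adjusted p = 0.000472). Cited2, also known as a target of HIF, was at 35.2 to 39.9 CPM in MaxKO, at 92.5 and 88.0 CPM in Ctrl 1 and 2 and at 49.7 and 50.4 CPM in Ctrl 3 and 4 (-0.90, SE 0.20, adjusted p = 0.00794). Its difference was -1.26 with the first pair and -0.42 with the second. Fos was at 18.9 and 19.6 CPM in Ctrl 1 and 2, at 4.46 and 8.70 CPM in Ctrl 3 and 4 and at 3.46 to 5.97 CPM in MaxKO. Its groups overlapped, and its fall (-1.59, adjusted p = 0.0173) did not pass with Ctrl 3 and 4 alone (-0.64, adjusted p = 0.129), without MaxKO 1 or 3, or without Ctrl 1 (adjusted p up to 0.0562), nor with no filter on low counts (adjusted p = 0.0809).

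Nr4a2, a nuclear receptor gene, rose from 3.07 to 5.16 CPM in Ctrl to 5.76 to 6.57 CPM in MaxKO (0.60, SE 0.17, adjusted p = 0.0237), all by edgeR. It did not pass when any 1 of the MaxKO libraries, Ctrl 1 or Ctrl 2 was left out (adjusted p up to 0.0704), or with Ctrl 3 and 4 alone (0.39, adjusted p = 0.136). In this list 5 genes fell with Ctrl 1 and 2 as the only controls and 2 with Ctrl 3 and 4. Fos, Cited2, Enpp2 and Adora2b shared the order of the controls, with Ctrl 1 and 2 above Ctrl 3 and 4, whereas Nt5e did not: its lowest control was Ctrl 2 and its highest Ctrl 4.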

How the data were processed

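RNA sequencing counts per gene symbol were analysed for 4 MaxKO and 4 Ctrl libraries, grouped by their titles. The deposited counts were made by the authors and, per the submitters' processing notes, involved bcl2fastq 1.8.4, TopHat2 2.0.12, HTSeq 0.6.1 and genome build mm9. Annotation and strand setting: not given in the sources used here, so reads of genes that overlap, on either strand, may be mixed. Lines of reads outside genes were left out of library sizes.

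Genes were kept with filterByExpr, which left 13358 of 23284, scaled with TMM factors and compared with edgeR 4.0.16 in R 4.3.3 (quasi-likelihood F test, robust, group as the only term, Benjamini-Hochberg adjustment over all tested genes, threshold 0.05). The F statistic and the log2 difference gave each SE. Correlations used log2 CPM with a prior count of 2. Genes under the filter were scaled by plain library totals, and levels per kb used these too, with GENCODE lengths. The procedure was tested on simulated data.

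The members, lists and named genes were chosen with earlier results of these data known. Named were the 10 genes, the genes of the genotype, up to 4 called genes with the smallest p in each list, and the 5 genes most like Nt5e by each of 2 measures, leaving out predicted genes. Adora2a, Adora3, P2rx3, P2rx7, Nt5m, Bst1, Slc28a1, Nt5c1a, Creb1, Adcy3, single cell type markers and genes of the turnover list were named after their values were seen. Alternatives were RLE and upper-quartile scaling, 2 other filters, DESeq2 1.42.0, limma-voom 3.58.1, no robust estimation, a replicate block, each library left out, and each pair of controls alone.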

Additional observations from a re-analysis of the deposited data

Results flagged for a closer look

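A library stood apart from the other 3 of its group, by Dixon's test at the 95% level, in 3 of 62 groups of 4 that were examined, about as many as chance gives (1 in 20 groups). Entpd2 was at 0.707 CPM in Ctrl 1 and at 0.243 to 0.292 CPM in the other controls, from 14 reads against 4 or 5. Ada was at 15.1 CPM in Ctrl 3 and at 8.42 to 9.26 CPM in the other controls. Adk was at 57.9 CPM in Ctrl 1 and at 49.7 to 50.04 CPM in the other controls.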

How the results depend on the processing

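Nt5e kept its direction and stayed within 1 SD of its reported difference in all 18 alternatives (log2 difference -2.28 to -2.02; -2.26 to -2.05 over the 8 fits without 1 library), and the 6 fitted adenosine genes kept their sign in 108 of 108 alternative values. The number of genes called was 2102 to 3743 when 1 library was left out, and 6068 with only Ctrl 1 and 2 kept. For the other pathway genes these counts were 13 to 25, and 32 with only Ctrl 1 and 2 kept. Upper-quartile scaling moved the share of lower among called genes from 52.8% to 62.9%, and the median of all genes to -0.05. Of the 19 called pathway genes, 12 passed in every alternative, 0 of 342 alternative values changed sign and 31 did not pass, most of them for Creb1, Adcy3, Nr4a2 and Fos. Equal replicate numbers showed no sign of pairing the libraries: the deviations of equally numbered libraries had correlations of -0.20, -0.01, 0.00 and -0.11. No library was most like the library of its own number in the other group. The labels do not say whether equal numbers mark a shared culture, and these correlations cannot settle it, since the controls also differed among themselves. With the replicate block 2532 genes and 17 other pathway genes were called, and the log2 difference of Nt5e was -2.14. Depth limits what can be said of Entpd1, Entpd2, Adora1 and Adora2b.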
